A study of Mus musculus with 6 samples.

Results

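The probes described here target chromosome intervals rather than annotated transcripts: their identifier on the array is an interval of the mm9 mouse genome, such as chr7:91558475-91733625, with no transcript accession. The array held 16194 such probes over 4610 intervals, with 1 to 10 probes per interval and a median of 3. Members were selected on detection: a probe was kept where its spots stood well above the local background on 3 or more arrays out of 6, in either genotype or both. This kept 9422 probes (58.2%) on 3894 intervals (84.5%). The intervals with a member ran from 62 to 538251 bases in length, with a median of 11176 bases. Nearly all identifiers end in F or R. The files do not say what the ending stands for, so it is given here as a name only. Whether the intervals are transcribed into noncoding RNA is not stated in the files either, and nearest genes and probe sequences were not analysed here.

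Long noncoding RNAs are transcripts that are not known to be translated into protein. Many come from intervals between genes and were first recognised from chromatin that carries the marks of an active promoter and of transcript elongation. They tend to be less abundant and more restricted to single cell types than messenger RNA, and in macrophages a number of them respond to differentiation or to inflammatory stimuli. Bach1 is a heme-binding repressor that pairs with small Maf proteins on DNA and keeps genes of heme breakdown and iron export at a low level. Heme releases it from DNA.

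RNA came from macrophages grown from the bone marrow of C57BL/6 mice, either wildtype (WT) or Bach1 KO, all 11 weeks old. The marrow cells of every mouse were cultured for 5 days with GM-CSF, a growth factor for myeloid cells, at 10 ng/mL. Each genotype had 3 independent mice, and the labels give 2 males and 1 female in each. One-dye arrays were run, 1 per mouse. The arrays are called WT 1, WT 2, WT 3, KO 947, KO 948 and KO 949 after their labels. The sources used here do not give how the Bach1 allele was made. Levels are on the log2 scale, with the 75th percentile of each array set to 0, and differences are KO minus WT. A level compares arrays for 1 probe, and is not compared between probes.

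The sex-linked genes of WT 3 did not match its label, and those of KO 948 gave mixed readings. WT 3, labelled female, read 0.92 for Ddx3y and 3.56 for Eif2s3y, which lie on the Y chromosome, as the arrays labelled male did, and its Xist probe A_52_P113537 read -7.88. KO 948, labelled male, had both Y-linked transcripts (1.09 and 3.57) and also Xist at -3.15 on that probe. A second Xist probe, A_52_P300376, was above background on WT 1 (-3.88) and KO 949 (-3.57) and not on KO 948 (-7.65) or WT 3 (-6.21), so the reading of KO 948 rests on 1 of 2 Xist probes. KO 949, labelled female, read -7.61 and -7.75 for the Y-linked genes and -2.42 on the first Xist probe. The single Bach1 probe read 2.21, 2.48 and 2.59 on WT 1, 2 and 3 and 1.45, 2.00 and 2.23 on KO 947, 948 and 949, a difference of -0.54 that did not pass the test (limma adjusted p = 0.312). Its position relative to the deletion is not known here. Hmox1, the heme oxygenase that Bach1 represses, rose by 2.14 on the log2 scale on 1 probe and by 3.82 on the other (limma adjusted p = 0.0231 and 0.0148). The 3 WT arrays shared a slide with KO 947, whereas KO 948 and KO 949 were on a second slide.

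Of the marker lists, none of 7 measured macrophage genes passed the test (median difference 0.13), and the log2 of their summed level ran from 8.34 to 8.51 in WT and from 8.42 to 8.56 in KO. Genes that passed the test lay in 3 lists for other cells that such cultures can hold, and all of them were lower in KO. In the stromal list all 7 tested genes were lower, with a median of -3.33, and 3 passed. Its log2 sums were 5.35, 5.26 and 3.35 on WT 1, 2 and 3 and 2.00, 2.48 and 2.27 on KO 947, 948 and 949. Lum was not well above background on any array. In the dendritic cell list all 8 were lower and 3 passed, with sums of 6.69 to 6.84 in WT and 5.91 to 6.08 in KO. In the list of eosinophil, mast cell and basophil genes all 7 tested were lower and 1 passed. The sums were 4.43 to 5.69 in WT and -0.08 to 4.19 in KO. No gene of the granulocyte (7 tested, 6 lower) or lymphocyte list (6 tested, all 6 lower) passed. Their sums in WT and KO were 7.37 to 7.68 and 6.60 to 6.86 for granulocytes and 1.98 to 2.40 and 1.80 to 2.11 for lymphocytes. In such bulk cultures fewer cells of a type and less RNA per cell cannot be told apart, and the part of these lists in the interval results was not tested.

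Interval probes were detected on fewer spots in KO than in WT cultures. They were well above background on 60.9%, 60.0% and 65.8% of their spots on WT 1, 2 and 3, and on 52.8%, 53.7% and 50.2% on KO 947, 948 and 949. The genotypes did not overlap. The other probes showed the same order at higher shares, at 74.1% to 75.9% in WT and 67.1% to 69.4% in KO. The lowest level that counted as above background was -5.74 on WT 1, -5.94 on WT 2 and -5.72 on WT 3, and -5.49 on KO 947, -5.69 on KO 948 and -5.51 on KO 949, so the limit itself was somewhat higher on the KO side. No spot was saturated.

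**Figure D1:**
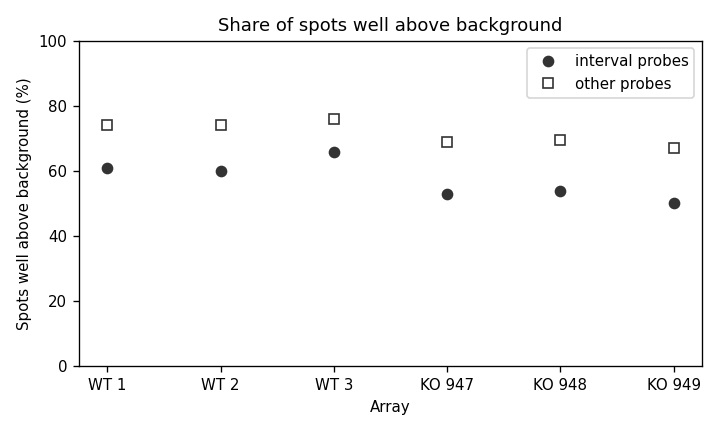
Share of spots well above background, in percent, on each of the 6 arrays, for interval probes (filled circles) and all other probes (open squares). Interval probes lie between 60.0% and 65.8% on the WT arrays and between 50.2% and 53.7% on the KO arrays.

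Detection was mostly all or none: 7178 interval probes were above background on all 6 arrays and 4130 on none. Those in between numbered 1751, 891, 749, 707 and 788 on 1, 2, 3, 4 and 5 arrays. Detection on all arrays of 1 genotype and on none of the other was given by 354 probes for WT and by 4 for KO. Since detection chose the members, these counts are a description. Just inside the rule stood A_30_P01026026 (chr5:30550467-30559008, R) and A_30_P01019913 (chr14:26973425-26986650, R), with differences of -0.04 (KO 948 missing) and -0.88. Just outside stood A_30_P01025492 (chr6:140904129-140992655, F), whose values ran from -6.95 on KO 949 to -0.08 on WT 3, and A_30_P01021115 (chr5:22801058-22939737, F), at -3.63 to -5.53 in WT and -5.47 to -5.95 in KO.

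The comparison of genotypes asked which intervals gave more or less RNA without Bach1. More interval probes fell than rose under the scaling used here. Of the 9422 members 71 (0.754%) passed the limma test (adjusted p below 0.05), against 1.04% of all 37830 probes tested and 1.13% of the probes that are no interval probes. Rises made up 15 of them (0.159% of members, against 0.256% of all probes tested) and falls 56 (0.594%, against 0.78%). Of the falls, 29 were on probes above background on no KO array, which had passed the filter through WT alone. No rise was on a probe seen in KO alone, so the 2 counts are not on an equal footing. Among members above background on all 6 arrays, 13 rises and 24 falls were called. A refit of the probes above background on all 6 arrays alone called 66 of 7178 members, against 451 of all 31940 probes. The share called among the interval probes was thus not above that of the array as a whole. The 71 probes lay on 63 intervals, 13 with a rise and 50 with a fall, and no interval had calls in both directions. At an unadjusted p under 0.05 there were 1711 members (18.2%), against 17.9% of all probes tested. The 2 genotypes did not overlap in any of the 71, as in 22.7% of the members and 24.5% of all probes tested.

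The surplus of falls depended on the scaling of the arrays. With scaling to the array median, 30 members were higher and 36 lower. With quantile normalization the calls divided evenly into 16 and 16, and adding normexp background correction made them 33 and 39, so the share of higher calls was 21.1% in the analysis reported here and 45.5%, 50% and 45.8% under the others. Of the 71 calls 24 also passed under all of these other scalings, 10 of them higher and 14 lower. Among these were A_30_P01033032, A_30_P01032108 and A_30_P01022045 on the rising side and A_30_P01017882, A_30_P01033328 and A_30_P01023265 on the falling side.

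The arrays mattered as much. The count was 2 without WT 1 and 2 without WT 2, 19 without WT 3, 108 without KO 947, 6 without KO 948 and 12 without KO 949. Of all 37830 probes tested, 21, 24, 185, 480, 35 and 89 passed in the same fits, in the same order. The dependence on single arrays was thus not particular to interval probes. Without both WT 3 and KO 948, 4 members passed, all lower, and 77 of all probes tested. A fit that blocks on the slide sets KO 947 alone against the WT arrays. In all 71 calls KO 947 lay outside the range of the WT arrays, so no sign could change in this fit. In it 20 passed and 6 of them were among the 71. Those 6 were falls: A_30_P01017882, A_30_P01033328, A_30_P01018939 (at least 1.55-fold lower), A_30_P01020553, A_30_P01024770 and A_30_P01024798. On the slide with both genotypes alone none passed. A_30_P01017882 and A_30_P01033328 were the 2 calls that passed with each array left out in turn. The detection filter from all 6 arrays was kept in those fits. Both probes were above background on the 3 WT arrays and on no KO array. Without a WT array they would therefore have missed the filter, so passing in those fits does not show that the calls are stable.

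The median difference of all members was -0.21 and that of all probes tested -0.08, but with scaling to the array median the members were at 0.010 and all probes at 0.14. Members lay below the array as a whole under both. With all probes tested divided by mean level into 5 classes of equal size, the dimmest class held 2988 members with a median of -0.39 and 32 falls against 0 rises, and the other probes in it had a median of -0.44 with 85 falls and 3 rises. In the next 3 classes members were at -0.23, -0.12 and -0.03, below the other probes at -0.20, -0.05 and 0.08. In the brightest class 296 members had a median of -0.02 with 1 fall, and the other probes were at 0.03. Members were thus lower than other probes of like level in all classes but the dimmest. Above background on all 6 arrays, members had a median of -0.15 and other probes of -0.01.

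**Figure D2:**
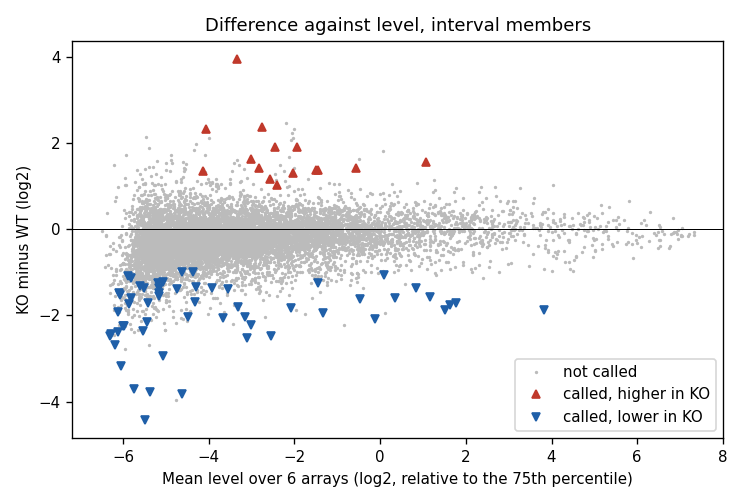
Each member's KO minus WT difference (log2) against its mean level over the 6 arrays (log2, relative to the array's 75th percentile). Grey points did not pass the limma test, upward triangles are the 15 called rises and downward triangles the 56 called falls; the dimmest levels hold falls only.

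Where no KO array was above background, the size of a fall is given as a lower limit under the background subtraction and scaling used here. This was so for 29 of the 56 falls. The limit sets the WT mean against, for each KO array, the higher of the probe's own value and the lowest level above background. It ran from 1.16-fold to 7.20-fold, with a median of 1.66 and 13 of 29 at 2-fold or more. Sizes given as "at least" are no limits under other processing. With normexp, A_30_P01022821 differed by -1.66 and A_30_P01017882 by -1.71, against limits of 2.85 and 2.30 on the log2 scale. In 24 falls all KO arrays were above background. Of the 15 rises 13 had all 6 arrays above background, with differences from 1.03 to 3.96 over all 15.

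An interval of 175 kb on chromosome 7, chr7:91558475-91733625 (F ending), held the most called falls. Of its 5 members 4 fell. A_30_P01017882 read -2.75, -3.15 and -3.89 on WT 1, 2 and 3 and -7.64, -7.81 and -7.63 on KO 947, 948 and 949, where it was not above background, so it was at least 4.94-fold lower (n = 3 per genotype; limma adjusted p = 0.00696). A_30_P01022821 read -2.09, -2.72 and -3.34 in WT and -6.85, -6.02 and -6.74 in KO, and was at least 7.20-fold lower (adjusted p = 0.0169). In both, the genotypes were far apart and WT 3 was the lowest WT array.

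A_30_P01024322, above background everywhere, read -1.28, -1.83 and -2.59 in WT and -4.09, -4.24 and -4.05 in KO, a 4.67-fold fall (adjusted p = 0.0381). A_30_P01027398 had a log2 difference of -1.39 (adjusted p = 0.0331), with WT arrays at -4.01 to -4.09 and 1 KO array above background. The remaining member, A_30_P01023831, differed by -0.58 and did not pass (adjusted p = 0.167), and the one probe that was no member, A_30_P01028192, was not above background on any array. The 5 members with the R ending of the same coordinates were all lower without passing, by -0.54 (A_30_P01025267) to -1.61 (A_30_P01021079). A_30_P01021079 read 0.23, -0.61 and -2.005 on WT 1, 2 and 3 against -2.34 to -2.45 in KO. In this probe WT 3 thus stood nearer the KO arrays, as it did in the stromal list. The log2 sum of that list was 5.35, 5.26 and 3.35 on WT 1, 2 and 3 and 2.00 to 2.48 in KO. Probes of these coordinates differed in this: WT 3 was also the lowest WT array in A_30_P01020755. It was the highest in A_30_P01027398 (-4.02, -4.09 and -4.01 on WT 1, 2 and 3) and A_30_P01021626 (-5.26, -5.17 and -4.22). The part of stromal cells in this result was not tested. Without WT 3, A_30_P01017882 and A_30_P01022821 still passed, but A_30_P01022821 did not pass without WT 1 or without WT 2 (adjusted p = 0.0774 and 0.0701) or in the slide-blocked fit (adjusted p = 0.0615).

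Intervals that overlap on chromosome 10 also fell together in part. In chr10:83185606-83225506 (F), A_30_P01033328 had the smallest adjusted p of all members, with -4.11, -3.62 and -3.91 on WT 1, 2 and 3 and -7.50, -7.76 and -7.54 on KO 947, 948 and 949 (at least 3.21-fold lower; limma adjusted p = 0.00254). A_30_P01032460 of the same interval read -4.34, -4.42 and -4.32 in WT and -6.27, -6.38 and -6.87 in KO (at least 2.31-fold lower, adjusted p = 0.0153). Neither was above background on a KO array, and the WT values lay close together. The third member, A_30_P01025586, differed by -1.25 (adjusted p = 0.106). The longer chr10:83181374-83249774 (F) contains this interval. There A_30_P01024970 fell, from -4.39, -3.51 and -5.49 to -7.60, -7.75 and -7.59 (at least 2.15-fold lower, adjusted p = 0.0378), with WT 3 again lowest. Its other members, A_30_P01017680 and A_30_P01030126, were at -1.16 and -0.76 and did not pass. Of chr10:83181374-83249918 (F), which covers the same stretch, none of 5 members passed, with differences from -0.74 (A_30_P01025402) to 0.48 (A_30_P01018094).

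**Figure D3:**
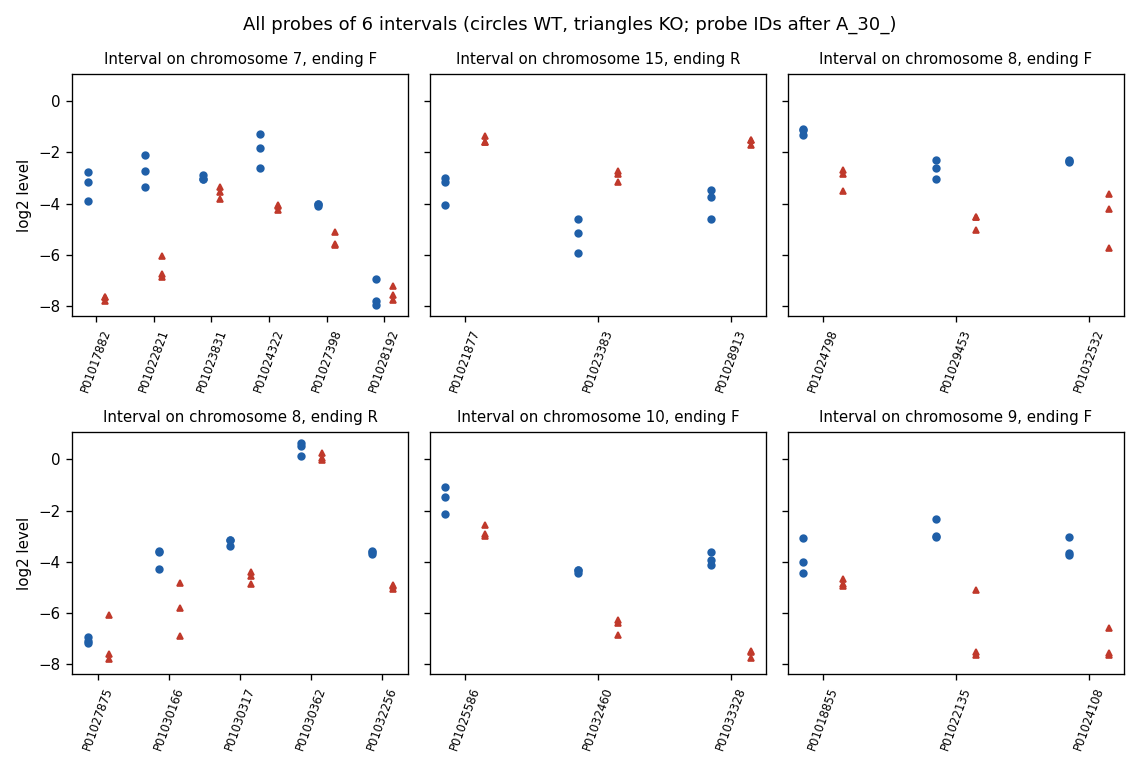
Level on each array (log2, relative to the array's 75th percentile) of every probe in 6 intervals, with WT as circles and KO as triangles. In the chromosome 15 interval all 3 probes lie higher in KO, while in the chromosome 7, 8, 9 and 10 intervals the probes above background lie lower in KO to unequal degrees.

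On chromosome 9, all 3 members of chr9:122481619-122588714 (F) were lower and 1 passed. A_30_P01024108 read -3.02, -3.74 and -3.67 in WT and -7.62, -7.57 and -6.58 in KO, where it was not above background (at least 4.25-fold lower; limma adjusted p = 0.0148). A_30_P01022135 differed by -3.96 but missed the threshold (adjusted p = 0.0581), with KO arrays at -7.62, -7.50 and -5.12, and A_30_P01018855 differed by -0.996.

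On chromosome 8, chr8:90048940-90049461 (F) and the longer chr8:89996710-90049453 (F), which covers all of it but its last bases, both held called falls. These are not separate stretches, and whether their probes target the same bases is not known here. A_30_P01024798 read -1.07, -1.32 and -1.12 in WT and -3.49, -2.82 and -2.67 in KO, a 3.54-fold fall (limma adjusted p = 0.0313). A_30_P01029453 fell 4.16-fold and A_30_P01024770 3.83-fold (adjusted p = 0.0251 and 0.0274), all with every array above background. These are among the falls that do not sit at the detection limit. A_30_P01032532 and A_30_P01022123 were lower by -2.19 and -1.46 without passing (adjusted p = 0.106 and 0.182). The intervals chr8:90000619-90061169 cover the same place with either ending, and none of their members passed, with differences from -1.12 (A_30_P01026178, R) to 0.24 (A_30_P01033533, R). In chr8:87504644-87513694 (R), A_30_P01030317 and A_30_P01032256 fell by 1.37 and 1.34 on the log2 scale, while A_30_P01030166 and A_30_P01030362 differed by -2.03 and -0.35 without passing (adjusted p = 0.123 and 0.395).

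On chromosome 15 a whole interval of several probes was called. All 3 probes of chr15:68170864-68171544 (R) rose in KO. A_30_P01028913 read -4.59, -3.46 and -3.74 on WT 1, 2 and 3 and -1.71, -1.50 and -1.50 on KO 947, 948 and 949, a 5.13-fold rise (2.36 ± 0.30, SE, n = 3 per genotype; limma adjusted p = 0.0281). A_30_P01023383 rose 4.98-fold (adjusted p = 0.0404), with 1 WT array not above background, and A_30_P01021877 rose 3.74-fold (adjusted p = 0.0451). WT 1 was the lowest array in each, and the genotypes did not overlap. The longer chr15:68161768-68193518 (R) contains this interval, and its 5 members differed by -0.19 (A_30_P01027903) to 0.07 (A_30_P01022552), with none passing. No probe of the F ending there was above background on any array. The calls were lost in the slide-blocked fit (A_30_P01028913 2.22, adjusted p = 0.119) and without WT 1, WT 2, WT 3, KO 948 or KO 949. A_30_P01023383 and A_30_P01021877 lost their calls without KO 947 too and with quantile normalization (adjusted p = 0.0596 and 0.0717).

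The largest single rise was that of A_30_P01020288 in chr7:66926500-66952100 (F). It read -5.89, -5.07 and -5.01 on WT 1, 2 and 3 and -2.75, -0.80 and -0.55 on KO 947, 948 and 949 (3.96 ± 0.60, SE, n = 3 per genotype; limma adjusted p = 0.0413), with 2 of 3 WT arrays above background. KO 947 was well below the other KO arrays, and the call was lost in the slide-blocked fit (2.57, adjusted p = 0.0788). The other members of that interval, A_30_P01027817 and A_30_P01032889, were at 0.13 and -0.32. The next called interval on that chromosome, 159 kb away at chr7:67111261-67120645 (F), has 1 member, A_30_P01018330, which rose from -4.68, -4.96 and -4.81 to -3.46, -3.50 and -3.45 (adjusted p = 0.0227).

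The remaining large rises were each seen with 1 probe of an interval. A_30_P01033032 in chr9:81537835-81583227 (R) had the smallest adjusted p among the rises (limma adjusted p = 0.0124). It read -2.90, -2.96 and -2.83 in WT and -1.06, -0.84 and -1.07 in KO, a 3.75-fold rise, while the other 3 members were between -0.38 (A_30_P01029628) and 0.41 (A_30_P01026333). A_30_P01032108 in chr14:55433382-55452757 (F) read 0.44, 0.24 and 0.18 in WT and 1.99, 1.71 and 1.85 in KO (2.95-fold, adjusted p = 0.0198). Neither probe overlapped between genotypes, and the values within each genotype lay close together.

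A_30_P01030946 in chr13:3497296-3500441 (F) rose by 1.62, A_30_P01029265 in chr12:4133875-4243375 (R) by 1.42, and A_30_P01022045 in chr9:24617562-24625262 (R) by 1.38 on the log2 scale. Each has 1 other member, with differences of -0.02 (A_30_P01020885), -0.39 (A_30_P01030920) and -0.26 (A_30_P01021239). In chr2:36112819-36114110 (F), in contrast, the other members A_30_P01021337 and A_30_P01017550 were higher as well, by 1.16 and 0.90, beside A_30_P01018292 at 1.41 (limma adjusted p = 0.0471), but did not pass. None of the rises passed in the slide-blocked fit.

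**Figure D4:**
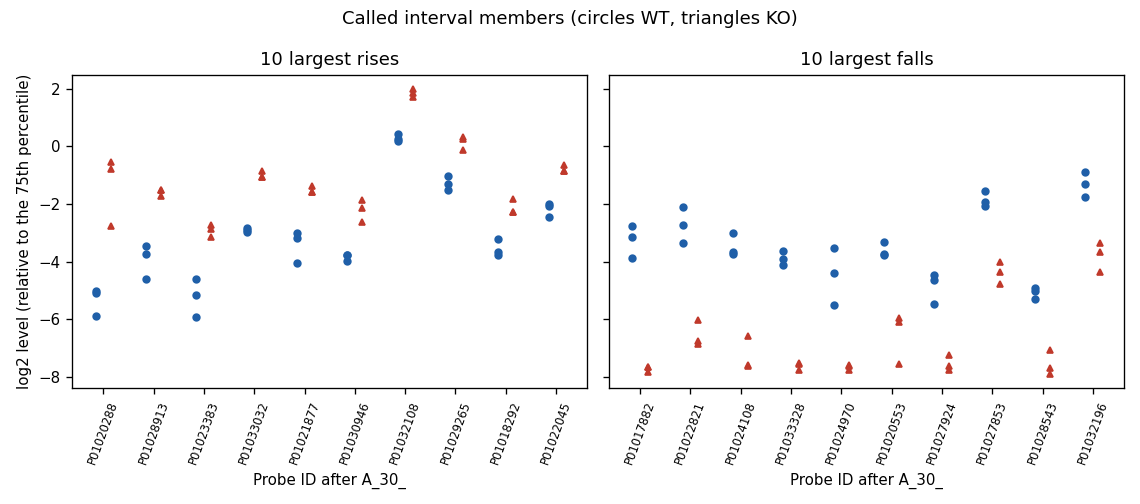
Level on each array (log2, relative to the array's 75th percentile) of the 10 called rises (left) and the 10 called falls (right) with the largest fitted differences, with WT as circles and KO as triangles. The genotypes do not overlap in any of them; most of the falls end below the lowest level above background, which was -5.69 to -5.49 on the KO arrays.

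Other large falls were A_30_P01020553 in chr10:95772764-95825001 (F; at least 3.90-fold lower, limma adjusted p = 0.0386), A_30_P01027924 in chr8:122843176-122844282 (F; at least 1.65-fold, adjusted p = 0.0225) and A_30_P01028543 in chr4:35106125-35127700 (R; at least 1.42-fold, adjusted p = 0.0197). A_30_P01027853 in chr7:112934153-112943178 (R) was above background on every array and read -1.56, -2.07 and -1.91 in WT and -4.00, -4.34 and -4.78 in KO (5.75-fold, adjusted p = 0.0179). Its 4 fellow members were between -0.50 (A_30_P01032903) and 0.05 (A_30_P01023007) and did not pass. Of these 4 falls only A_30_P01020553 also passed in the slide-blocked fit.

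Chromosome 16, which carries Bach1, held 2 called members of 312, both falls. This share of 0.641% was not above the 0.754% of all members or the 1.04% of all probes tested. A_30_P01032196, the only member of chr16:84708695-84708806 (F), read -1.76, -1.31 and -0.89 on WT 1, 2 and 3 and -3.35, -4.37 and -3.65 on KO 947, 948 and 949 (5.54-fold, limma adjusted p = 0.0305). A_30_P01031713 in chr16:4525147-4542122 (F) read 0.58, -0.01 and 0.48 in WT and -1.11, -1.29 and -1.43 in KO (3.08-fold, adjusted p = 0.0293), with its 4 fellow members between -0.89 (A_30_P01027175) and 0.63 (A_30_P01027734). Neither passed in the slide-blocked fit (adjusted p = 0.128 and 0.120). The 312 members on this chromosome had a median difference of -0.21, the same as all members to 2 decimals.

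Over the chromosomes, median differences ran from -0.30 on chromosome 9 to -0.11 on chromosome 14, and all were below 0 under this scaling. The share of interval probes that were members ran from 51.3% on chromosome 13 to 67.4% on chromosome 19. Calls made up 1.70% of the members on chromosome 15 (7 of 411) and 1.64% on chromosome 7 (7 of 428). On chromosomes 8 and 10 they made up 1.59% (10 of 628) and 1.57% (6 of 383), against 0.754% of all members. Chromosome 18 had none among 313. On chromosome 15, 3 of the 7 calls were probes of chr15:68170864-68171544 (R). On chromosome 7, 4 of the 7 were probes of chr7:91558475-91733625 (F). Probes of 1 interval are not independent, so these shares are a description. No interval probe lay on the Y chromosome. The F ending had 4709 members with a median of -0.21 and 36 calls, and R had 4706 with -0.21 and 35.

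Members seen in 1 genotype only had passed the filter through that genotype, so their values are a description. Of the 4 members above background in all KO arrays and in no WT array, none passed. A_30_P01023746 in chr16:8748982-8757165 (R) was at least 2.36-fold higher in KO (limma adjusted p = 0.174), with WT at -7.68 to -5.40 and KO at -4.89 to -4.04. A_30_P01020303 in chr16:23992037-24001037 (F) was at least 2.14-fold higher (adjusted p = 0.101), and A_30_P01023806 in chr6:23105525-23118900 (F) and A_30_P01019098 in chr13:62152594-62153041 (R) at least 1.80-fold and 1.76-fold. In the other direction, beside those named above, A_30_P01021951 in chr9:40268246-40268441 (R) was at least 3.29-fold lower in KO and did not pass (adjusted p = 0.0824).

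A group of 10 called falls stood at a level above -2 on all 6 arrays, well clear of the background. They were chosen after their values were seen. Among them, A_30_P01032356 in chr14:105497388-105511063 (F), read 4.77, 4.31 and 5.17 on WT 1, 2 and 3 and 2.82, 2.90 and 2.94 on KO 947, 948 and 949. A_30_P01027811 in chr8:122712014-122732520 (R) read 2.75, 2.29 and 2.81 against 1.01, 0.81 and 0.91, and A_30_P01032580 in chr5:74487385-74497428 (F) 2.72, 2.15 and 2.64 against 0.73, 0.80 and 0.69. The KO arrays lay within 0.374 of each other in all 10, and WT 2 was the lowest WT array in 10 of 10, against 25 of 62 other probes called lower at the same level. The 10 lay on 6 chromosomes.

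None of the 25 other members of those intervals passed. They had a median difference of -0.08 and ran from -0.97 to 0.66. In chr6:31115515-31168433 (R) the fellow members A_30_P01023118 (-0.97) and A_30_P01033525 (-0.69) were lower beside the called A_30_P01021373 (-1.06). For A_30_P01023265 in chr6:116092274-116144199 (F), with a log2 difference of -2.08 (limma adjusted p = 0.0124), and for A_30_P01029937 in chr12:110973190-110987668 (F), with one of -1.57 (adjusted p = 0.0264), the fellow members lay on both sides of 0.

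**Figure D5:**
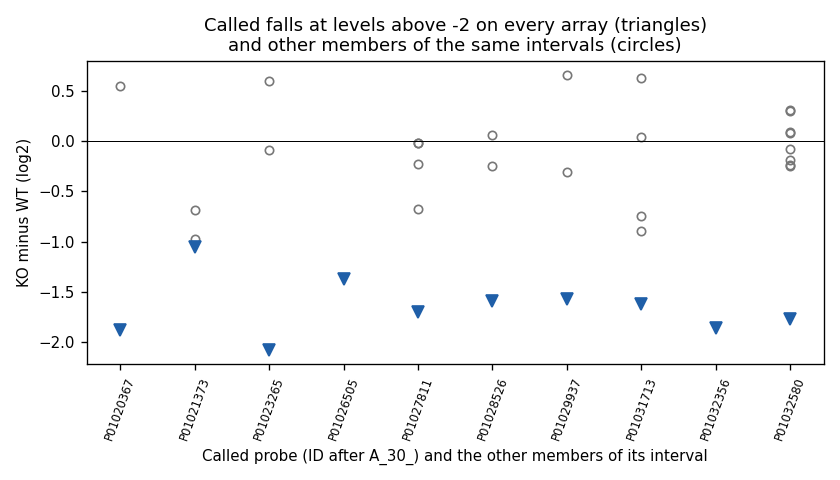
KO minus WT difference (log2) of the 10 called falls that lie above a level of -2 on every array (triangles) and of the other members of the same intervals (open circles). The other members run from -0.97 to 0.66, and 2 of the intervals have no other member.

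Probes of 1 interval often gave different answers across the whole set. In 875 intervals with exactly 2 members above background on all 6 arrays, the 2 differences had the same sign in 534 and a Pearson correlation of 0.23 across intervals. The points share their arrays, so this is a description. Between the F and R endings of the same coordinates, the median differences correlated at 0.11 over 859 pairs, with the same sign in 564. Of 101 other members on intervals with a called fall 76 were lower, and of 23 on intervals with a called rise 10 were higher. Of all members 69.5% were lower in KO. Both of these counts, and the counts of equal sign above, have to be read against that share. Among the 63 called intervals 58 had 1 called probe and 5 had several. When the members of each interval were averaged before the fit, 22 of 3894 intervals passed, 4 higher and 18 lower, and 13 of them held at least 2 members. In the same fit 397 of all 32302 intervals and other probes passed.

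The most members on an interval was 10, on 7 intervals, and none of these had a call. In chr4:129497990-129515290 (F) all 10 were lower, by -0.22 to -0.65, and in chr19:53517903-53540753 (R) 9 of 10 were lower, with a median of -0.73. Medians were -0.21 for chr11:95627874-95640824 (F), 0.10 for chr17:26911397-26917047 (F), -0.37 for chr5:125190100-125209625 (R), -0.35 for chr6:116092274-116144199 (R) and -0.08 for chr8:119732348-119749198 (F). Where both endings of an interval held many members, they could differ: chr19:53517903-53540753 had medians of -0.32 for F and -0.73 for R, chr17:26911397-26917047 of 0.10 and -0.26, and chr5:137392195-137426421 of 0.14 and -0.27. The endings of chr2:153163620-153170845 were at 0.12 and 0.20, and those of chr7:4827340-4863315 at -0.25 and -0.11.

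Outside the F and R naming, 13 probes on 3 intervals carried no ending, 7 of them members. The 5 members of chr17:12941161-12944859 were all lower in KO with no overlap between genotypes, and none passed. A_30_P01018135 read 0.78, 0.15 and 0.45 on WT 1, 2 and 3 and -0.25, -0.69 and -0.72 on KO 947, 948 and 949 (limma adjusted p = 0.102). The differences of the 5 ran from -0.82 (A_30_P01027065) to -1.17 (A_30_P01025039). This interval was chosen for description after its values were seen.

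Between sexes as labelled, no member differed in the limma test with genotype as covariate, and no probe of the array did. At an unadjusted p under 0.05 there were 364 members and 1142 of all probes tested (0% of all probes called). The smallest adjusted p of a member was 0.234. Without WT 3 the comparison called 1 member, and without KO 948 none. As the sex labels of these arrays are in doubt, the counts do not show whether sexes differ.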

How the data were processed

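Each array was scanned once in a single colour. The deposited scanner files hold spot intensity values that were background-subtracted and detrended within each array by Agilent Feature Extraction. Its version is 10.7.3.1 in the file headers, while the submitters' processing notes name 9.1. Probe design was on mm9 per the file headers. Each array has 62976 spots, 59305 of them not controls, for 55681 probes. A deposited table of the authors holds log2 values of 3215 probes, 663 of them members. It served as an alternative only.

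Log2 processed signals were reduced by the log2 of the array's 75th percentile, outlier spots (0.196% to 0.386%) were dropped, and repeat spots of a probe were averaged. A value was missing on an array for 18 members. limma 3.58.1 in R 4.3.3 (lmFit, eBayes, two-sided) was fitted to all 37830 probes above background on at least 3 arrays, with Benjamini-Hochberg adjustment over all of them, no covariate and a call at 0.05. Alternatives were other scalings, filters, slide and sex terms, array weights, interval means and each array left out. Normexp (offset 50) used median spot signals.

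Named probes were the 10 called rises and 10 called falls of largest fitted difference, intervals with all members called, the intervals with most members, probes seen in 1 genotype, calls on chromosome 16 and members next to the detection limit. Members, lists and this rule were chosen with earlier results of these data known. On simulated data for KO against WT (37748 probes), the fit called 14.9%, 62.7% and 86.4% of probes changed 2-fold, 4-fold and 8-fold, and 2 unchanged probes. Precision is limited by having 3 arrays per genotype. No sequence or nearest gene was used here.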

Additional observations from a re-analysis of the deposited data

How the results depend on the processing

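The 71 calls became 32 with quantile normalization, 12 with no filter on dim probes, 20 with the slide as a fixed block, 34 with it as a random block, 0 on the slide with both genotypes (limma), 42 with sex as a covariate, 8 on arrays labelled male only and 22 intervals with interval means. They became 334 with array weights, 257 at an adjusted p under 0.1 and 634 of 663 in the authors' deposited table, where the genotypes do not overlap in any of its 3215 probes. Leaving out 1 array gave 2 to 108 calls, and leaving out WT 3 and KO 948 together, an alternative chosen after seeing the data, gave 4. Median scaling, normexp, the filter on all 6 arrays, kept outliers and eBayes with trend and robust gave 66 to 96. Counts among all 37830 probes tested, of which 1.04% passed in the main fit, moved too. They were 225 with quantile normalization, 73 and 211 with the slide as a fixed and a random block and 231 with sex as a covariate. On arrays labelled male only the count was 112, with array weights 1509 and with median scaling 397. With no filter it was 95 of 55681 probes. These shifts were thus not particular to interval probes. The median difference of the members, -0.21, was -0.025 with quantile normalization, -0.017 with normexp, -0.64 in the authors' table and 0.010 with median scaling, and -0.26 to -0.14 with 1 array left out. The sex comparison called 0 to 1 members with 1 array left out, the 1 without WT 3. Of 527 values of the 26 named probes under alternatives 205 were no longer past the threshold. The 26 include A_30_P01019098, A_30_P01020303, A_30_P01021951, A_30_P01023746 and A_30_P01023806. Those had not passed in the main fit, so their values could not lose a call. Among the called probes the share of values that lost the call was therefore higher than 205 of 527. The 1 value that newly passed, for A_30_P01021951, came from the authors' table. None changed sign, but the genotypes did not overlap in any of the 26. With arrays left out or the slide blocked their sign could therefore not change. The causes were not tested. No paired analysis was possible because the genotypes share no replicate numbers. Dim probes limit the sizes of falls to bounds, and these hold only under the processing used here.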
